A study of Mus musculus with 18 samples.

Results

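The genes described here are 35 genes of the unfolded protein and endoplasmic reticulum (ER) stress response, measured in CD8 T cells from mouse spleen on 3 diets. They were taken by symbol in the GENCODE M21 annotation and comprise 11 ER chaperones and co-chaperones, 6 genes of disulfide formation, 6 of ER-associated degradation, 2 of the protein entry channel, 5 stress sensors and their transcription factors, and 5 targets of the PERK and ATF4 arm. The 35 symbols correspond to 36 of the 56748 gene rows, because Ddit3 has a second identifier that was listed at 0 in every library and was set aside. Of the 35 genes, 33 passed the filter on low counts, among 13690 genes tested. The cells were FACS-sorted from wild-type mice, and the RNA was bulk poly-A RNA from freshly isolated cells. HFD libraries came from mice kept on a high fat diet throughout 12 weeks, SW libraries from mice switched to normal diet after 6 weeks of high fat diet and kept on it for 6 more, and ND libraries from mice kept on normal diet throughout 12 weeks. Each diet had 6 libraries. The labels give neither the strain, age and sex of the mice nor the makeup of the diets, and they do not state whether each library is a separate mouse. The p-values given here therefore rest on the spread among libraries, part of which could be technical.

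The unfolded protein response is the set of signals by which a cell matches the folding capacity of its ER to the proteins that enter it. IRE1, encoded by Ern1, splices the Xbp1 messenger RNA, PERK, encoded by Eif2ak3, slows translation while allowing ATF4 to be made, and ATF6 is cut in the Golgi to release a transcription factor. Their targets are chaperones such as BiP (Hspa5), enzymes that form disulfide bonds, the machinery that returns misfolded proteins to the cytosol, and, on the PERK and ATF4 arm, genes such as Ddit3 and Asns. ATF6 and PERK activation and Xbp1 splicing take place in protein or in transcript structure and are not read by gene counts.

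Total counts per library lay between 11947339 and 16398340. The summed level of 10 CD8 T cell markers was 7056 to 7998 CPM in HFD, 7146 to 7862 in SW and 7101 to 7959 in ND, where CPM are read counts scaled to library size with TMM factors. Markers of other cells differed between libraries. The summed level of 13 plasma cell markers had a lowest, median and highest value of 61.1, 74.8 and 129 CPM in HFD, 50.2, 65.7 and 119 in SW, and 37.1, 45.5 and 77.6 in ND. Plasma cells are rich in ER chaperone RNA, although this list includes Irf4 and Prdm1, which T cells also express, and by mean CPM its largest gene was the immunoglobulin light chain gene Igkc in HFD (28.3) and SW (24.9) but Tnfrsf13b in ND (20.4, against 10.6 for Igkc). Of the defining plasma cell markers, Mzb1 and Tnfrsf17 had 11 and 3 counts in all 18 libraries together, whereas Jchain had a mean of 9.24 CPM in HFD, 6.26 in SW and 3.04 in ND, and Sdc1 0.397, 0.260 and 0.160 CPM. Jchain was not called between HFD and ND (log2 fold change 1.60 ± 0.47, SE; edgeR adjusted p = 0.106), and Sdc1 did not pass the filter. The sum of 9 erythroid markers was 16.7, 88.8 and 347 CPM in HFD, 35.9, 46.8 and 95.3 in SW, and 18.2, 42.6 and 46.3 in ND. Of the 7 tested erythroid genes, 0 were called between HFD and ND. At an unadjusted p under 0.05 in edgeR, 6 of the 7 were higher in HFD, against 7.79% of all genes, and the median log2 fold change of the 7 was 1.98. The sum of 11 B cell markers was 538, 611 and 692 CPM in HFD, 514, 569.8 and 631 in SW, and 489.8, 513 and 548 in ND, and of the 6 tested 1, Ighm, was called higher in HFD than in ND. The sum of 8 dendritic cell markers was 386, 448 and 681 CPM in HFD, 270.1, 383 and 420 in SW, and 270.3, 357 and 517 in ND, with 0 of 8 called between HFD and ND and 3 higher in HFD at an unadjusted p under 0.05. The sum of 6 CD4 T cell markers was 17.8, 22.1 and 35 CPM in HFD, 12.7, 16.4 and 18.3 in SW, and 13.1, 14.9 and 18.3 in ND, and 1 of 6, Ctla4, was called higher in HFD than in ND. Ctla4 alone made up 11.9 CPM of a mean sum of 23.3 in HFD and 4.36 of 15.6 in ND. Cd4 itself had means of 0.835, 0.510 and 0.274 CPM in HFD, SW and ND. The sum of 11 markers of monocytes, macrophages and neutrophils had means of 543, 517 and 575 CPM in HFD, SW and ND, of which Ly6c2, which CD8 T cells also express, made up 511, 493 and 552 CPM. That sum therefore follows mostly Ly6c2, while of the 8 tested genes of the list 0 were called and 4 were higher in HFD than in ND at an unadjusted p under 0.05. HFD replicate 4 had the highest erythroid sum and the highest plasma cell sum of all libraries, and it also stood apart in several of the genes below, so results that rest on it are given with and without it. It stood apart over all tested genes too. On the first principal component of log2 CPM, the main axis of variation among libraries, it lay at 55.0. The other libraries lay between -8.83 (ND replicate 1) and 6.31 (HFD replicate 2). In bulk RNA, fewer cells of a type and less RNA per cell cannot be told apart.

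Levels of the 35 genes spanned a wide range in these cells, on the scale of the deposited FPKM, which are per gene length. Calr, encoding the lectin chaperone calreticulin, was highest at 187 ± 13.9 FPKM (SD, n = 18 libraries), and its range did not overlap that of the next gene. Pdia3, encoding the disulfide isomerase that works with calreticulin, followed at 123 ± 9.82 FPKM, then Hspa5 at 92.1 ± 10.1 and the transcription factor gene Atf4 at 82.9 ± 11.2 FPKM, each of these overlapping its neighbour in the order. The sensor genes were far lower. Eif2ak3 had 5.97 ± 0.571 FPKM, Atf6 1.29 ± 0.262 and Ern1 1.17 ± 0.288, the last of these overlapping in range, while Xbp1 had 10.6 ± 1.03 FPKM. At the bottom stood Trib3, encoding a pseudokinase induced by ATF4, at 0.980 ± 0.304 FPKM, Asns, encoding asparagine synthetase, at 0.187 ± 0.145, and Chac1, encoding an enzyme that degrades glutathione, at 0.026 ± 0.028. Asns had 2 to 20 counts per library in HFD, 1 to 13 in SW and 2 to 12 in ND. Chac1 had 0 to 2 counts in HFD and 0 to 1 in both SW and ND. Neither gene passed the filter, so neither was tested for a difference between diets in the main fit.

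**Figure D1:**
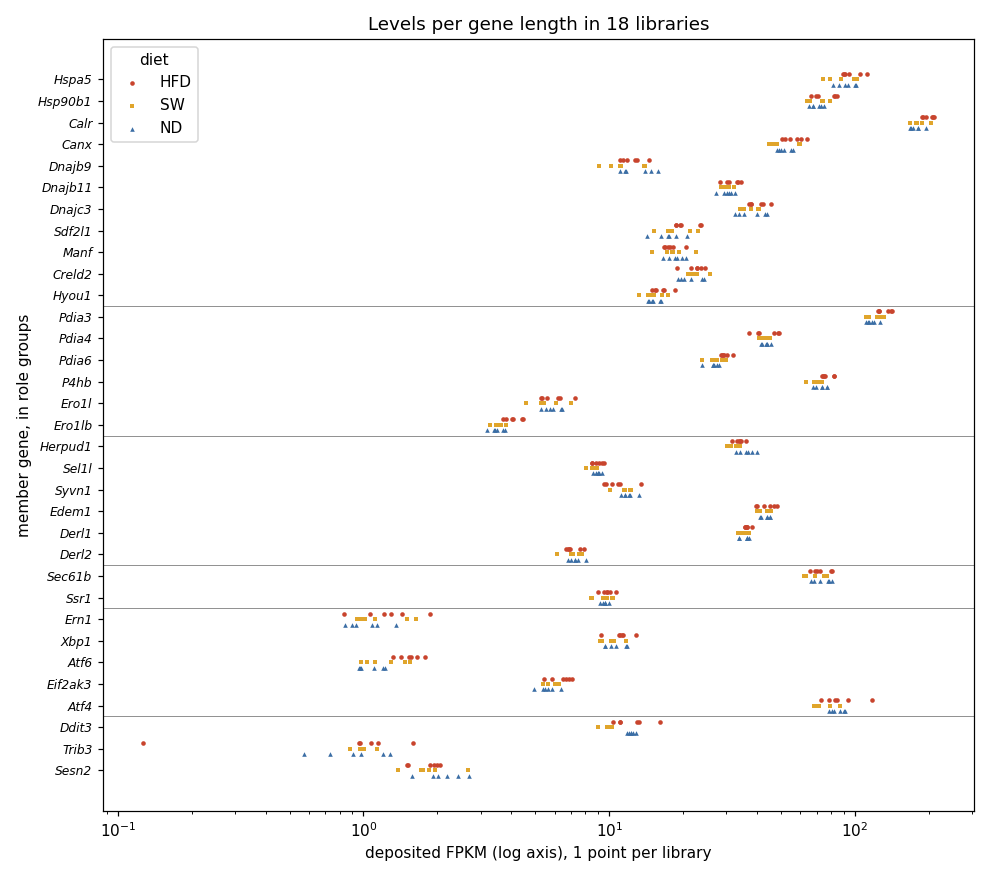
Deposited FPKM of the 33 tested genes on a log axis, with 1 point per library, HFD above SW above ND for each gene, and lines between role groups. Calr lies highest and Ern1, Atf6 and Trib3 lie among the lowest, and for most genes the 3 diets overlap.

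The promoters of these genes were read for the ER stress response element, ERSE, which ATF6 is known to bind together with NF-Y. It was searched as CCAAT, 9 bases and CCACG, on both strands, from 250 bases before to 50 after the RefSeq start. RefSeq promoters of GRCm38.p6 were at hand for 31 of the 35 genes, and Atf6, Manf, Hyou1 and Derl1 had none in the table. ERSE was found in 9 of the 31 genes (29.0%), namely Hspa5, Hsp90b1, Calr, Canx, Dnajc3, Creld2, Pdia6, Ero1lb and Syvn1, against 37 of 27025 genes with a promoter (0.137%). The related ERSE-II, ATTGG, 1 base and CCACG, was found in Herpud1 and Dnajb11 (6.45%, against 0.0444% of genes). The UPRE letters TGACGTGG, and the ATF4-type letters TGATGCAAT and ATTTCATCA, were in none of the 31 windows, against 0.714%, 0.222% and 0.278% of genes. Only these exact letters within this window were searched, so elements with other letters or farther from the start would be missed. A match of letters is a description and not a site shown to be bound. The 35 genes were taken as known genes of this response, so their higher shares of ERSE and ERSE-II are not separate evidence. The lines below show the windows of Hspa5, the best-known gene of the response, of Hsp90b1, which carries 2 elements, and of Calr, Pdia6, Ero1lb and Herpud1, whose values by diet are described further on. Capitals mark the element, and each sequence reads 5′ to 3′ along the strand of the gene.
Hspa5 (chr2:34772020-34772048, plus strand): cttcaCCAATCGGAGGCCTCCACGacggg
Hsp90b1 (chr10:86705528-86705661, minus strand): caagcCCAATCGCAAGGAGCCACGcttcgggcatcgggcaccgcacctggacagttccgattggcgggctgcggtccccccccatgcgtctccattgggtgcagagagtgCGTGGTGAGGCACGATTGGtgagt
Calr (chr8:84847070-84847098, minus strand): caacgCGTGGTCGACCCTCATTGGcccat
Pdia6 (chr12:17266486-17266514, plus strand): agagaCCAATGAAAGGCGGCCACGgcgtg
Ero1lb (chr13:12565677-12565705, plus strand): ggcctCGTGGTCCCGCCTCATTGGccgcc
Herpud1 (chr8:94386362-94386402, plus strand): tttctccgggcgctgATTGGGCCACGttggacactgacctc
In Hspa5 and Pdia6 the element reads along the gene, whereas in Calr and Ero1lb it lies on the other strand. Hsp90b1 holds one in each direction.

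HFD was set against ND to see which genes differ when the high fat diet is never interrupted. In this comparison, 1 of the 33 tested genes, Atf6, passed the edgeR quasi-likelihood test at a Benjamini-Hochberg adjusted p under 0.05 (3.03%), against 1.62% of all 13690 genes tested, and it rose in HFD, as did 0.665% of all genes. Counted at an unadjusted p under 0.05, 9 of the 33 genes passed (27.3%), against 14.9% of all genes. Of these, 7 were higher in HFD (7.79% of all genes), namely Atf6, Eif2ak3, Calr, Sdf2l1, Pdia3, Pdia6 and Ero1lb. The other 2, Herpud1 and Syvn1, were lower (7.09% of all genes). Fold changes were above 0 in 25 of the 33 genes, against 52.4% of all genes, and their median on the log2 scale was 0.051, against 0.0081 over all genes. The 32 genes that were not called had 95% intervals within 0.5 on the log2 scale in either direction in 29 cases, the exceptions being Ern1, Trib3 and Sesn2.

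Among the sensors, Atf6 rose in HFD. Atf6 (ENSMUSG00000026663; chromosome 1, 170704674 to 170867771, minus strand, GRCm38) had 11.8, 13.8 and 15.7 CPM as the lowest, median and highest of the HFD libraries, against 8.54, 9.32 and 10.9 CPM in ND. All 6 HFD libraries lay above all 6 ND libraries, and HFD replicate 2 was highest. The log2 fold change was 0.51 ± 0.12 (SE; edgeR adjusted p = 0.0245), or 1.43-fold. Atf6 ranked 95 by p among all genes tested. It shares no exon bases with another annotated gene.

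The call of Atf6 depended on single libraries and on the test. Apart from the fits without 1 library, Atf6 was called in 11 of 17 settings, the main fit, DESeq2 and limma-voom among them. With limma on log2(FPKM + 0.1) the difference was 0.49 ± 0.12 (SE; adjusted p = 0.0610), and on log2(FPKM + 1), a scale that understates the change of low genes, it was 0.29 ± 0.073 (adjusted p = 0.0546). Within replicates 3 to 6 alone the edgeR log2 fold change was 0.53 ± 0.14 (adjusted p = 0.0515). The call was made in 14 of 18 fits that left out 1 library and was missed without ND replicate 3 (adjusted p = 0.0657), ND replicate 5 (adjusted p = 0.0686), ND replicate 6 (adjusted p = 0.0616) or HFD replicate 2 (adjusted p = 0.0634), all from edgeR, with log2 fold changes of 0.47 to 0.55 over the 18 fits. Atf6 was higher in HFD in both sets of replicates. In replicates 1 and 2, HFD had a mean of 15.2 CPM and ND 10.9 (n = 2 each), and in replicates 3 to 6 HFD had 13.0 and ND 8.97 (n = 4 each). Of 8 tested plasma cell markers, 1, Prdm1, was called higher in HFD than in ND, against 0.665% of all genes. At an unadjusted p under 0.05 in edgeR, 4 of the 8 were higher in HFD, against 7.79% of all genes. Fold changes were above 0 in 7 of the 8, against 52.4% of all genes. With the summed plasma cell marker level as a covariate, the log2 fold change of Atf6 was 0.46 ± 0.15 (SE; edgeR adjusted p = 0.304), in a fit that called 5 genes in all. With the erythroid sum as a covariate it was 0.49 ± 0.14 (adjusted p = 0.105), with the B cell sum 0.58 ± 0.16 (adjusted p = 0.0724) and with the myeloid sum, which is mostly Ly6c2, 0.47 ± 0.11 (adjusted p = 0.0185). The part of these cells in the result was not tested beyond these fits.

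The other 4 genes of the sensor group were not called. Eif2ak3 had 31.6, 38.5 and 40.9 CPM in HFD, against 28.8, 32.5 and 37.3 in ND. The 2 ranges overlapped, although the HFD median lay above the highest ND library. Its log2 fold change was 0.18 ± 0.072 (SE; edgeR adjusted p = 0.216). Part of its exons overlaps a transcript annotated on the opposite strand, and strand was not stated for these counts. Ern1 had 6.59, 9.87 and 14.7 CPM in HFD, against 6.65, 8.04 and 10.7 in ND, with HFD replicate 1 far above the rest and HFD replicate 4 lowest of all libraries, and a log2 fold change of 0.29 ± 0.17 (adjusted p = 0.454). That value was 0.14 without HFD replicate 1 and 0.38 without HFD replicate 4, the lowest and highest of the 18 fits without 1 library. With the B cell sum as a covariate it was 0.80 ± 0.19 (edgeR adjusted p = 0.0397), and Ern1 was then called while Atf6 was not. Ern1 therefore had one of the widest spreads, with a coefficient of variation of 24.4% over the 18 libraries, against a median of 9.18% for the 33 genes. Xbp1 had 29.2, 34.8 and 39.8 CPM in HFD, against 30.1, 32.8 and 37.1 in ND (log2 fold change 0.064 ± 0.078, adjusted p = 0.760). Atf4 had 166, 190 and 269 CPM in HFD, against 179, 192 and 208 in ND, and its log2 fold change of 0.050 ± 0.088 became -0.053 ± 0.067 without HFD replicate 4, which held the value of 269 CPM. Neither fold change of Atf4 was called.

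Among the chaperones and disulfide enzymes, differences in HFD were small and did not pass the adjusted threshold in the fit by diet alone. Calr had 518, 558 and 578 CPM in HFD, against 467, 491 and 545 in ND, and all 6 HFD libraries lay above the ND mean of 495 CPM, with ND replicate 3 reaching into the HFD range. Its log2 fold change was 0.16 ± 0.052 (SE; edgeR adjusted p = 0.123). Pdia3 had 373, 397 and 429 CPM in HFD, against 340, 351 and 384 in ND, overlapping through ND replicate 6, and its log2 fold change was 0.17 ± 0.053 (adjusted p = 0.102). With the 2 sets of replicates (1 and 2, 3 to 6) as a factor, Calr had 0.16 ± 0.045 (edgeR adjusted p = 0.0401) and Pdia3 0.17 ± 0.044 (adjusted p = 0.0274), in a fit that called 535 of all 13690 genes, against 222 by diet alone. Pdia6, another disulfide isomerase, had 103, 105 and 115 CPM in HFD, against 86.9, 96.5 and 102 in ND. These 2 groups did not overlap, as was also true of Atf6 and of 1.67% of all genes, although the log2 fold change of Pdia6 was only 0.15 ± 0.054 (adjusted p = 0.169). Its exons overlap Atp6v1c2 on the opposite strand and those of Pdia3 overlap Catsper2. Ero1lb, encoding an oxidase that feeds the isomerases, had 23.9, 25.9 and 28.5 CPM in HFD, against 20.7, 22.3 and 24.2 in ND, with HFD replicate 4 lowest and inside the ND range. Its log2 fold change was 0.21 ± 0.070 (adjusted p = 0.117).

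Hspa5, which encodes BiP, the central ER chaperone, was not called either. It had 364, 379 and 462 CPM in HFD, against 333, 378 and 417 in ND, nearly the same medians, and a log2 fold change of 0.068 ± 0.077 (SE; edgeR adjusted p = 0.737), which was 0.018 ± 0.076 without HFD replicate 4 (adjusted p = 0.950), the library at 462 CPM. With all libraries, its 95% interval ran from -0.091 to 0.23. Hsp90b1, encoding the ER HSP90 paralog, had 258, 297 and 328 CPM in HFD, against 252, 271 and 294 in ND (log2 fold change 0.11 ± 0.065, adjusted p = 0.427). Dnajb9, encoding a co-chaperone of BiP, had 27.1, 30.2 and 35.5 CPM in HFD and 27.4, 31.9 and 39.1 in ND (log2 fold change -0.095 ± 0.105, adjusted p = 0.728). Of the 9 genes with ERSE in the window, 8 had fold changes above 0 in HFD, with a median of 0.11, and of the 20 tested genes without it 14 did, with a median of 0.021. In SW against HFD, 2 of the 9 and 3 of the 20 were above 0, with medians of -0.11 and -0.077. In SW against ND, 5 of the 9 and 5 of the 20 were above 0. No gene of either class was called in any comparison, and a link to ERSE was not tested.

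The degradation genes were not called, and 2 of the 6 had fold changes above 0. Herpud1, encoding an ER membrane protein of the degradation complex, had 71.1, 76.5 and 80.7 CPM in HFD, against 74.2, 82.6 and 90.2 in ND, with all 6 HFD libraries below the ND mean but inside the ND range for all except HFD replicate 5. Its log2 fold change was -0.11 ± 0.053 (SE; edgeR adjusted p = 0.315). Syvn1, encoding the ubiquitin ligase of that complex, had 44.3, 49.4 and 62.9 CPM in HFD, against 52.4, 55.7 and 62.3 in ND, and HFD replicate 2 was highest of all libraries for it (log2 fold change -0.16 ± 0.073, adjusted p = 0.318). The median log2 fold change was -0.023 in the 6 degradation genes, 0.11 in the 6 disulfide genes and 0.073 in the 11 chaperones. Of the PERK and ATF4 targets, Ddit3 had 17.2, 19.9 and 26.8 CPM in HFD, against 19.6, 20.4 and 21.3 in ND, with HFD replicate 4 highest. Its log2 fold change of 0.015 ± 0.090 became -0.077 ± 0.078 without that library, and neither was called.

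The other 17 tested genes were not called in any comparison. Sdf2l1, encoding a cofactor of BiP, had the largest positive log2 fold change of them in HFD against ND, 0.23 ± 0.10 (SE; edgeR adjusted p = 0.266). It had 19.9, 20.9 and 25.2 CPM in HFD, against 15.3, 18.6 and 22.1 in ND, with HFD replicates 2 and 3 above all ND libraries. Sesn2, encoding a stress-induced restraint on growth signalling, had the most negative one, -0.25 ± 0.15 (adjusted p = 0.462), with 5.03, 6.37 and 6.87 CPM in HFD, against 5.29, 7.07 and 9.02 in ND. The genes of the entry channel, Sec61b and Ssr1, had -0.028 and 0.027. Canx, encoding the membrane-bound lectin chaperone calnexin, had 0.12 ± 0.072 in HFD against ND and -0.15 ± 0.072 in SW against HFD (adjusted p = 0.431 and 0.435).

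**Figure D2:**
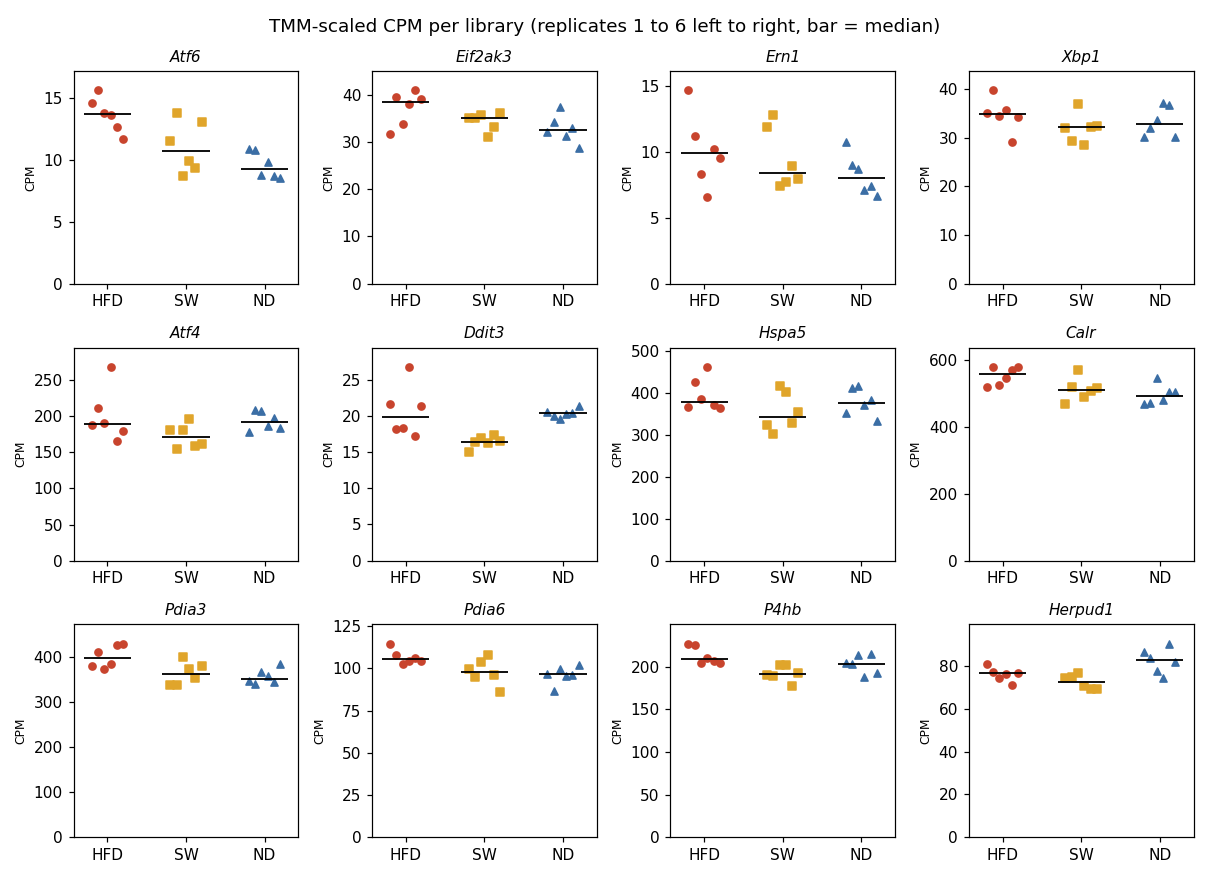
TMM-scaled CPM of 12 genes in each library, with HFD left, SW in the middle and ND right, replicates 1 to 6 from left to right and a bar at the median of each diet. Atf6 in HFD lies above ND in every library, Ddit3 in SW lies below ND in every library, and HFD replicate 4 stands highest for Atf4, Ddit3 and Hspa5.

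Comparing SW with ND asked whether the genes differed after the return to normal diet. In it, none of the 33 genes was called by edgeR (0 of 33), against 0.0146% of all genes, which is 2 of 13690, and DESeq2 and limma-voom also called 0 of the 33. At an unadjusted p under 0.05, 2 of the 33 passed (6.06%), against 6.81% of all genes, and both, Ddit3 and Herpud1, were lower in SW (3.37% of all genes). Fold changes were above 0 in 11 of the 33 genes, against 50.9% of all genes, with a median of -0.025. The intervals lay within 0.5 in either direction for 30 of the 33, and the exceptions were Ern1, Trib3 and Ddit3.

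Ddit3, which encodes the transcription factor CHOP (ENSMUSG00000025408; chromosome 10, 127290774 to 127296288, plus strand, GRCm38), had 14.97, 16.5 and 17.3 CPM in SW, against 19.6, 20.4 and 21.3 in ND. All 6 SW libraries lay below all 6 ND libraries, which was the case for 1 of the 33 genes and, in either direction, for 0.716% of all genes. The log2 fold change was -0.31 ± 0.091 (SE; edgeR adjusted p = 0.291), and it did not pass over all genes tested. In the fits without 1 library it ran between -0.33 and -0.29. Ddit3 shares exon bases with Mars and Gm4189 on the opposite strand. Within replicates 1 and 2, SW had a mean of 15.7 CPM and ND 20.3, and within replicates 3 to 6 SW had 16.7 and ND 20.4.

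Herpud1 had 68.9, 72.5 and 76.7 CPM in SW, against 74.2, 82.6 and 90.2 in ND, with all 6 SW libraries below the ND mean and some overlap. Its log2 fold change was -0.18 ± 0.053 (SE; edgeR adjusted p = 0.288). Atf6 in SW, at 8.69, 10.7 and 13.8 CPM, lay between the other diets and overlapped both, with a log2 fold change of 0.21 ± 0.12 against ND (adjusted p = 0.815). The 3 SW libraries highest for Atf6 were replicates 1, 2 and 6. Hspa5 had 302, 342 and 418 CPM in SW, against 333, 378 and 417 in ND (log2 fold change -0.091 ± 0.078, adjusted p = 0.931), and Atf4 had 155, 171 and 196, against 179, 192 and 208 (-0.17 ± 0.088, adjusted p = 0.779).

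SW against HFD asked what distinguishes mice returned to normal diet from those kept on high fat diet. In it, none of the 33 genes was called by edgeR (0 of 33), against 0.124% of all genes, and DESeq2 and limma-voom called 0 of the 33 as well. At an unadjusted p under 0.05, 9 of the 33 passed (27.3%), against 11.1% of all genes, and each was lower in SW (5.64% of all genes). They were Atf4, Atf6, Calr, Canx, Ddit3, Ero1lb, P4hb, Pdia3 and Pdia6. Fold changes were above 0 in 6 of the 33 genes, against 48.7% of all genes, with a median of -0.092. This comparison uses the HFD libraries that also enter HFD against ND, so the 2 comparisons are not separate evidence.

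P4hb, encoding the prototype disulfide isomerase, had 177, 191 and 202 CPM in SW, against 204, 209 and 227 in HFD. These groups did not overlap, which held for 1 of the 33 genes and 0.782% of all genes. The log2 fold change was -0.15 ± 0.049 (SE; edgeR adjusted p = 0.249). Ddit3 had 14.97, 16.5 and 17.3 CPM in SW, against 17.2, 19.9 and 26.8 in HFD, a log2 fold change of -0.33 ± 0.091 (adjusted p = 0.150) that was -0.24 ± 0.079 without HFD replicate 4 (adjusted p = 0.275). Atf4 had 155, 171 and 196 CPM in SW, against 166, 190 and 269 in HFD, with a log2 fold change of -0.22 ± 0.088 (adjusted p = 0.356) that was -0.11 ± 0.067 without HFD replicate 4 (adjusted p = 0.541). Atf6 had a log2 fold change of -0.30 ± 0.12 in SW (adjusted p = 0.322), with the SW libraries at 8.69 to 13.8 CPM and the HFD libraries at 11.8 to 15.7 overlapping. Across the 3 diets together, 0 of the 33 genes were called by edgeR, against 0.898% of all genes, while 8 had an unadjusted p under 0.05, against 13.3% of all genes. DESeq2 called 2 of the 33 there, Atf6 and Ddit3, and 427 of all 13690 genes, against 123 by edgeR.

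**Figure D3:**
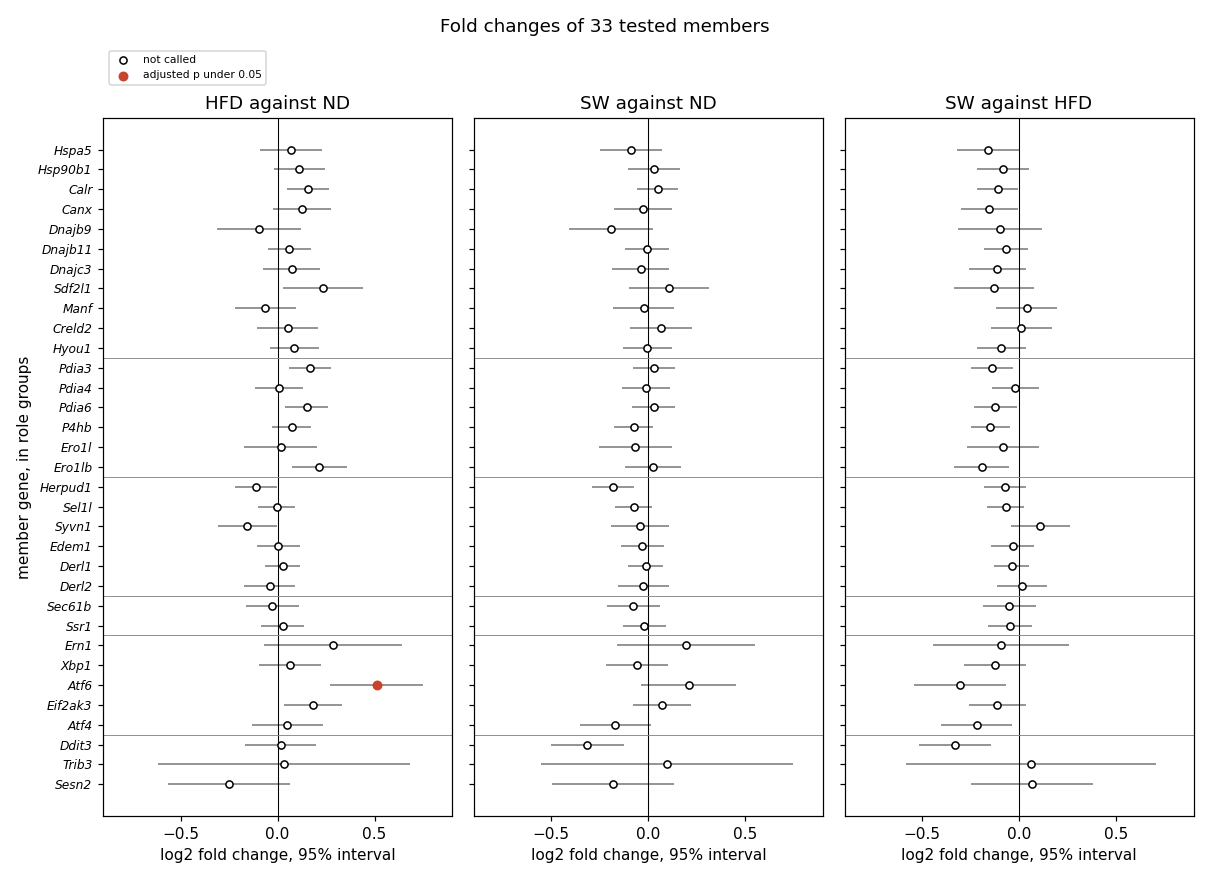
Log2 fold changes with 95% intervals for the 33 tested genes in HFD against ND, SW against ND and SW against HFD, with a filled point for adjusted p under 0.05. Only Atf6 in HFD against ND is filled, at 0.51.

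Related genes outside the 35 were read from 5 lists. Of the tested genes of these lists, Rpn2, encoding a subunit of the oligosaccharyltransferase, was called higher in HFD than in ND, and Cebpg, encoding a partner of ATF4 in dimers, was called lower. Rpn2 had 197, 209 and 220 CPM in HFD, against 174, 185 and 189 in ND (log2 fold change 0.18 ± 0.044, edgeR adjusted p = 0.0340). Cebpg had 38.1, 41.5 and 45.9 CPM in HFD, against 49.9, 52.8 and 55.8 in ND (log2 fold change -0.34 ± 0.061, adjusted p = 0.00502). Neither gene overlapped between the 2 diets, which was also true of 1.67% of all genes. Over all genes tested, 1.62% were called in HFD against ND and 52.4% had fold changes above 0. In the list of 29 tested ER folding factors 0 were called in HFD against ND, with 18 fold changes above 0 and a median of 0.066. In the list of 30 degradation and export factors 0 were called, with 21 above 0. In the 31 entry and oligosaccharyltransferase factors 1 was called, with 17 above 0, in the 39 ATF4 and amino acid response genes 1, with 22 above 0, and in the 17 further sensor and CREB3-type factors 0, with 11 above 0. No gene of the 5 lists was called in SW against ND or SW against HFD by edgeR, against 0.0146% and 0.124% of all genes.

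The genes did not move as 1 block across the libraries. Over the 18 libraries the 528 pairs of tested genes had a median Pearson r of 0.13 on log2 CPM, with 55 pairs above 0.5 and 12 below -0.5. These values describe libraries that share depth and preparation. Some of them also changed when only replicates 3 to 6 were used. Canx and Ern1 had an r of 0.76 over all libraries and 0.48 within replicates 3 to 6. Ero1l and Sec61b had -0.59 and -0.014. Over all 18 libraries, Canx and Hyou1, a lectin chaperone and an HSP70-type exchange factor of BiP, had the highest r, 0.90, and Calr and Pdia3 had 0.84. Within replicates 3 to 6 these 2 pairs had 0.88 and 0.80. Hspa5 and Hsp90b1, both classic ER stress targets, had an r of -0.17 over all libraries and -0.25 within replicates 3 to 6. The 5 genes closest to Hspa5 were Atf4, Dnajb9, Derl1, P4hb and Xbp1, and the 5 closest to Hsp90b1 were Hyou1, Pdia4, Canx, Dnajb11 and Eif2ak3, so the 2 sets had no gene in common.

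**Figure D4:**
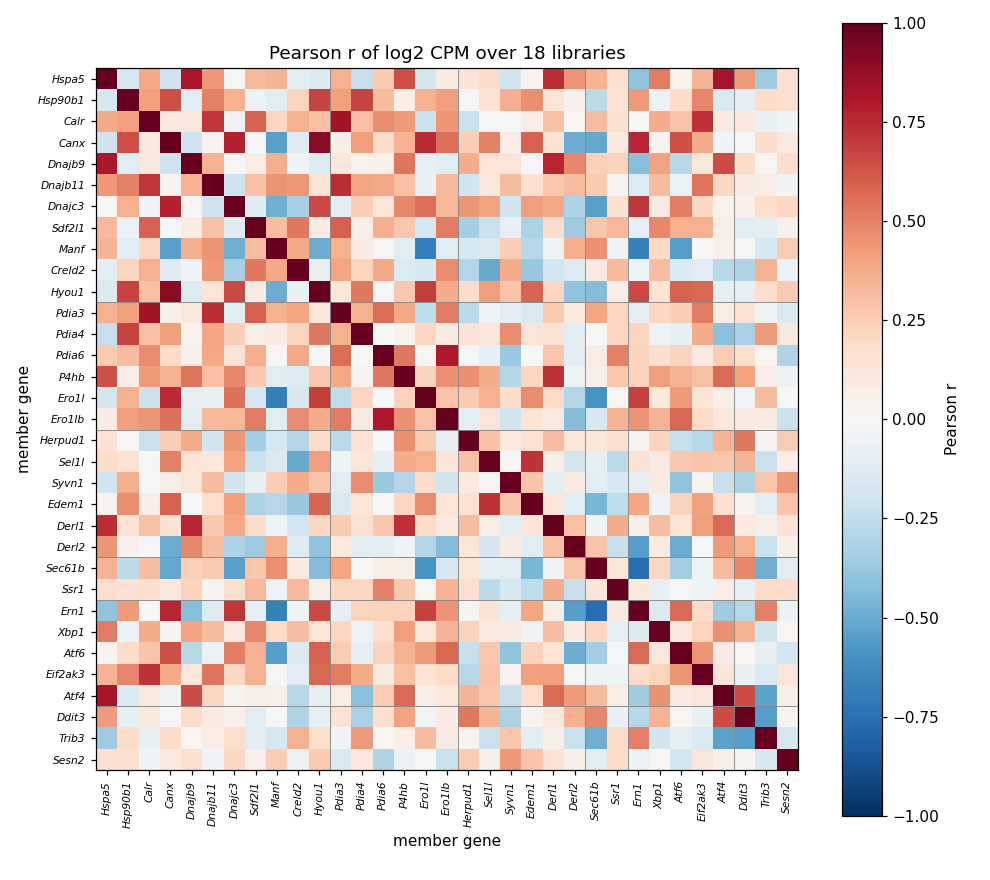
Pearson r of log2 CPM over 18 libraries for each pair of the 33 tested genes, ordered by role with lines between role groups, red for positive and blue for negative. The row of Hspa5 is red at Dnajb9 and Atf4 and pale at Hsp90b1, whereas Canx, Hyou1 and Ern1 form red pairs with each other.

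Among 9828 genes with a mean of at least 5 CPM, the pattern most like that of Hspa5 was not that of an ER chaperone. The highest Pearson r over the 18 libraries was with Ppp1r15a, which encodes the phosphatase subunit GADD34, at 0.91 (Spearman rho 0.86; permutation adjusted p = 0.0152 over all tested genes, its raw p of 1e-05 being the smallest that 100000 resamples can give). The top 10 also held Zfp36, Dusp1, Jun, Rgs2, Ier2, Junb, Atf4 and Ube2s. Atf4 ranked 9 with r = 0.82 and rho = 0.82 (permutation p = 4.00e-05 and 6.00e-05, adjusted p = 0.0274 and 0.0587), and r was 0.71 without the 2 libraries farthest from the median of Hspa5, SW replicate 2 and HFD replicate 4. Dnajb9 ranked 12 with r = 0.81 and rho = 0.81 (permutation p = 6.00e-05 and 9.00e-05, adjusted p = 0.0391 and 0.0770), and r was 0.85 without those libraries. Of the 31 ranked members of the gene group, 4 stood in the top 100, Atf4, Dnajb9, Derl1 and P4hb, and with r taken within replicates 3 to 6 only 2 did, Atf4 and Derl1. After subtracting each diet's mean from its libraries, r with Hspa5 was 0.78 for Atf4 and 0.85 for Dnajb9.

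**Figure D5:**
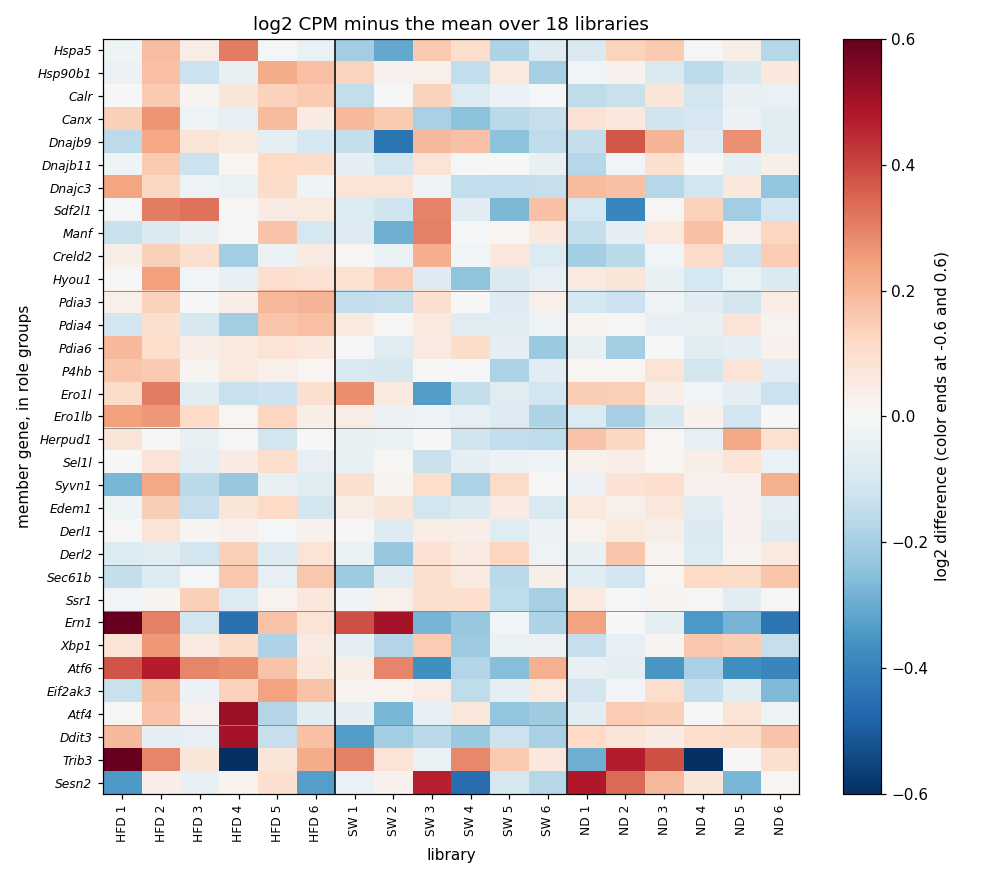
Log2 CPM of the 33 tested genes minus the gene's mean over 18 libraries, with HFD libraries left, SW libraries in the middle and ND libraries right. HFD replicate 4 is red at Atf4 and Ddit3 and blue at Ern1 and Trib3, and the Atf6 row is red through HFD and mostly blue in ND.

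Levels of some genes also differed with the replicate numbers. In all 3 diets, replicates 1 and 2 had a higher mean than replicates 3 to 6 in 11 of the 33 genes and a lower mean in 6, and the other 16 were mixed. The labels do not say what the numbers mark, and no test was made of this. Ern1 was higher in replicates 1 and 2 by 0.54 on the log2 scale, Atf6 by 0.27 and Ero1l by 0.26, as means over the 3 diets, and Manf was lower, at -0.20, as was Sec61b, at -0.18. Sesn2 and Trib3, both stress targets with low counts, had coefficients of variation of 19.0% and 31.0% over the libraries. HFD replicate 4 had the lowest Trib3 of all libraries, at 0.261 CPM or 4 counts, beside the highest Atf4. Derl1, encoding a channel component of degradation, varied least of the 33 genes, with a coefficient of variation of 3.44%.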

How the data were processed

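RNA-seq was done on 18 libraries of sorted spleen CD8 T cells, 6 per diet. Per the submitters' processing notes, fastp was used and the builds GRCm38 and mm10 are named. Aligner, counting tool, annotation and strand setting were not given in the sources used here. For every library the authors deposited raw gene counts without normalization, and FPKM values, which over 9534 genes equalled the deposited counts times a gene factor and a library factor (largest relative departure 2.5e-09). Symbols were taken from GENCODE M21, and 4675 of 56748 identifiers did not match.

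The test on counts was the quasi-likelihood F test of edgeR 4.0.16 under R 4.3.3 (TMM, filterByExpr, robust fit, diet only, all 18 libraries in 1 fit), with Benjamini-Hochberg adjustment over 13690 genes; the common biological coefficient of variation was 0.115. Fold changes are log2 with SE. DESeq2 1.42.0 and limma 3.58.1, also on log2 FPKM with 0.1 or 1 added, were alternatives. Only the edgeR step was tested on simulated counts with known changes. Total counts were 11947339 to 16398340 per library; no molecular identifiers are mentioned, so the error of counting alone is too small. CPM were scaled by TMM, with a prior count of 2 for log2 CPM. The per-library values named are those of the sensors, Hspa5, Ddit3, every called gene and the 5 of smallest p in each comparison, with a few chosen after their values were seen, namely Hsp90b1, Syvn1, Sdf2l1, Sesn2, Canx, Sec61b, Ssr1, Trib3 and Derl1. The genes, lists and tests were chosen with earlier results of these data known. Of the 10 genes most like Hspa5, 1 is not reported here.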

Additional observations from a re-analysis of the deposited data

Results flagged for a closer look

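Derl1, encoding a channel component of ER-associated degradation, had 121 CPM in HFD replicate 2, against a nearest value of 117 CPM in the other HFD libraries. The gap was 0.639 of the range of the 6 libraries, over the critical value used for 6 samples. It was the only such value among the 99 gene and diet combinations of the 33 tested genes, and chance flags about 1 in 20. Its fold changes were not called in any comparison.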

How the results depend on the processing

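Of the alternatives, the log2 fold changes kept their direction and side of the threshold in 640 of 672 fits that kept all libraries. The number of the 33 genes called in HFD against ND was 1. It was 0 with limma on log2 FPKM plus 0.1 or plus 1, within replicates 3 to 6, or with the plasma cell or the erythroid covariate. It was 1 with the B cell covariate, but there the gene was Ern1 and not Atf6. It was 3 (Atf6, Calr, Pdia3) with the replicate block, with the 2 replicate sets as a factor, or with the myeloid covariate, in fits that called 598, 535 and 395 of all 13690 genes, against 222. For the test over all diets the number was 0, and it was 2 with DESeq2, the replicate block or the myeloid covariate, 3 with the replicate sets as a factor, and 1 with the erythroid covariate or no filter. Leaving out 1 library gave 0 to 1 in both. The erythroid, myeloid and B cell covariates were chosen after the data were seen. The members among the 100 genes most like Hspa5 were 2 within replicates 3 to 6, and ERSE-II was found in 1 gene with the window ending at the start. The cause of these changes was not tested.

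Uncalled fold changes that turned sign were small. In HFD against ND, with the B cell, erythroid and plasma cell covariates, Atf4 was -0.082, -0.097 and -0.051, Ddit3 -0.15, -0.14 and -0.090, and Hspa5 -0.057, -0.00636 and -0.00682. Xbp1 was -0.018 with the erythroid and -0.060 with the plasma cell covariate and -0.047 in replicates 3 to 6. In SW against ND, Calr was -0.011 and Pdia3 -0.037 with the B cell covariate, Ern1 -0.018 and Ero1lb -0.0069 with the myeloid covariate, and in replicates 3 to 6 Ero1lb was -0.041 and Hspa5 8.26e-05. In SW against HFD, Dnajb9 was 0.018 in replicates 3 to 6. Without 1 library, Atf4 ran from -0.053 to 0.095 and Ddit3 from -0.077 to 0.059 in HFD against ND, Ero1lb from -0.0011 to 0.051 and Pdia6 from -0.0011 to 0.066 in SW against ND, and Ern1 from -0.20 to 0.051 in SW against HFD.

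Deviations correlated over 0.1 in 7 of 18 same-numbered pairs (median 0.083), 6 of them in replicates 1 and 2, and in 6 of 90 other pairs (median -0.010). Since not every same-numbered pair passed 0.1, the numbers were not taken as pairs, although this does not show that libraries share nothing by number. The fit by diet alone keeps any such shared spread in its error. With the replicate block, all-gene calls were 598, 49 and 138 in HFD against ND, SW against ND and SW against HFD, against 222, 2 and 17 without it. C-terminal retention signals were not run. Depth limits Trib3, Asns and Chac1.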
